A study of Mus musculus with 6 samples.

Results

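The 42 genes described here encode the machinery of cell division and DNA replication, and they were followed in infarcted mouse cortex after injection of nanoparticles or saline. They were taken by symbol from a count table of 56748 genes, where all 42 were found, and 40 of them passed the filter on low counts. The table holds 3 PLEA libraries and 3 saline libraries, numbered 1 to 3 in each group by their titles. The PLEA libraries came from male wild-type C57 mice with a photothrombotic stroke that received 100 µL of PLEA nanoparticles in the tail vein 2 hours after the stroke, and the labels do not spell out PLEA. The saline libraries came from mice of the same sex, strain and genotype with the same stroke and 100 µL of saline at the same time. In both groups the lesion was made on the left side by a 532 nm laser (250 mW, 1.5 mm, 5 minutes) after an intravenous agent at 100 mg/kg, and tissue was taken at day 3. Both groups therefore carry the lesion, and no uninjured cortex stands beside them. The comparison asks whether the treatment altered the levels of these genes in the infarct at that time.

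A cell that leaves the resting state first makes D-type cyclins, which free the E2F transcription factors from the retinoblastoma protein. E2F proteins then switch on the enzymes that make nucleotides and copy DNA, and later the DREAM and FOXM1 complexes time the genes of mitosis. Mature neurons do not divide, and the dividing cells known from injured cortex include microglia, astrocytes, oligodendrocyte precursors, endothelial cells and macrophages that enter from the blood.

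The libraries held 16810448 to 17516434 counts each, of which the 42 members took 3058 to 9265. Levels are given as CPM, the count scaled to a common library total with TMM factors. Neuron markers were abundant in every library, with Snap25, a synaptic release protein, at 2870, 2272 and 2151 CPM in the PLEA libraries, against 2344, 2802 and 2527 CPM in the saline libraries. Markers of striatum, which lies under the cortex, were also present, and their summed level over 5 genes was 375, 958 and 777 CPM in the PLEA libraries, against 359.8, 63.2 and 812 CPM in the saline libraries. Saline replicate 2 was thus the lowest library for striatal markers, and saline replicate 1 and PLEA replicate 1 were the next lowest. In such bulk samples, fewer cells of a type and less RNA per cell cannot be told apart. Whether each replicate was its own animal is not stated in the labels, and the p-values below cover only how far these 3 libraries per group spread, a spread that may be technical.

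Promoter sequences were drawn from a RefSeq table (build GRCm38.p6) that held 35 of the 42 members, and the 250 bases before the start were searched on both strands. The motif TTTGAA, the cell cycle homology region bound by the DREAM complex in mitotic promoters, lay in 10 of 35 member genes (28.6%), against 18.3% of the 27025 genes in the table. The CCAAT box, bound by NF-Y, lay in 28 of 35 members (80.0%), against 37.5% of all genes. At least 1 of the E2F motifs TTCCCGC and TTGGCGC lay in 9 of 35 members (25.7%), against 6.45% of all genes. By role, TTTGAA lay in 7 of 19 mitotic members and 1 of 10 S-phase members, and an E2F motif in 2 of 19 and 4 of 10. The CCAAT box was similarly frequent in both, in 16 of 19 mitotic members and 8 of 10 S-phase members. A reversed CCAAT box, ATTGG, can share letters with TTGGCGC. These matches describe letters and do not show binding.

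The 6 promoters below were chosen after the values were seen, and they do not stand for all genes of their roles. Top2a, Ube2c and Kif11 are mitotic members and Cdk1 belongs to the cyclins and their kinases. These genes varied widely across the libraries, and the replication genes Mcm6 and Rrm1 varied less. Each line gives the 120 bases before the start, 5′ to 3′ on the gene's strand, with the motifs named above in capitals wherever they lie on either strand. Top2a lies at chr11:99024190-99024309 (minus strand), Cdk1 at chr10:69352913-69353032 (minus strand), Ube2c at chr2:164769809-164769928 (plus strand) and Kif11 at chr19:37376262-37376381 (plus strand). Mcm6 lies at chr1:128359706-128359825 (minus strand) and Rrm1 at chr7:102441575-102441694 (plus strand).
Top2a: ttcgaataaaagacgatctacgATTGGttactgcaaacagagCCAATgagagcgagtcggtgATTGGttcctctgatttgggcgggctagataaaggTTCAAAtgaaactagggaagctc
Cdk1: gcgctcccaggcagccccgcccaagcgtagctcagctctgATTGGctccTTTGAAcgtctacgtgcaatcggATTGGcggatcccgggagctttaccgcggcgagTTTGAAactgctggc
Ube2c: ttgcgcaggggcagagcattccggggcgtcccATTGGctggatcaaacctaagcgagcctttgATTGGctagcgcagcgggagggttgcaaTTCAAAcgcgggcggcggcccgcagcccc
Kif11: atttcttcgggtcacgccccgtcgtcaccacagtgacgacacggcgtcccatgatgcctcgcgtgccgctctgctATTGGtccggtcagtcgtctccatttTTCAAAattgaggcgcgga
Mcm6: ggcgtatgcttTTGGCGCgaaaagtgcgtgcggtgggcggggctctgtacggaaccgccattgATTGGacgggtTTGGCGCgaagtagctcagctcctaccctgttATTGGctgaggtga
Rrm1: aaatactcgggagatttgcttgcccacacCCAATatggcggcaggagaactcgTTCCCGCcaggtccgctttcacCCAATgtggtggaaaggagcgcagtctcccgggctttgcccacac
In the promoters of Top2a, Cdk1, Ube2c and Kif11 a TTTGAA motif sits within 30 bases of the start and a CCAAT box lies farther upstream. Mcm6 has 2 of the TTGGCGC motifs and Rrm1 has TTCCCGC, and neither has a cell cycle homology region in these bases. Such a region within 30 bases of the start was found in 6 of 35 members (17.1%), namely Cdc20, Cdk1, Kif11, Prc1, Top2a and Ube2c, against 1.72% of all genes, with the window chosen after the promoters were seen. For each gene, the highest library was divided by the median library to describe its spread. The median of this ratio was 6.44 in those 6 genes (2.17 to 13.6) and 2.72 in the other 29 (1.26 to 10.9). The 6 included 5 of the 19 mitotic members and 0 of the 10 S-phase members with a promoter. This comparison therefore mixes motif with role, and it was not made within the mitotic members. Whether the motif bears on the spread was not tested. Over all members, the ratio reached 7.66 in the 11 S-phase members and fell to 1.59 in the 22 mitotic members, so these ranges overlapped.

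The members were highest in 1 saline library and, in most cases next to it, in 1 PLEA library. Saline replicate 1 was the highest library for 39 of 42 members, a place it held for 21.3% of all 17584 genes tested. The highest 2 libraries were PLEA replicate 1 and saline replicate 1 for 36 of 42 members, or 34 of the 40 tested, against 9.06% of all tested genes. Summed over the 42 members the level was 345, 173 and 172 CPM in the PLEA libraries, against 544, 191 and 213 CPM in the saline libraries. PLEA replicate 1 was below saline replicate 1 for 41 of 42 members, with Mcm5 as the exception, against 49.3% of all tested genes.

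**Figure D1:**
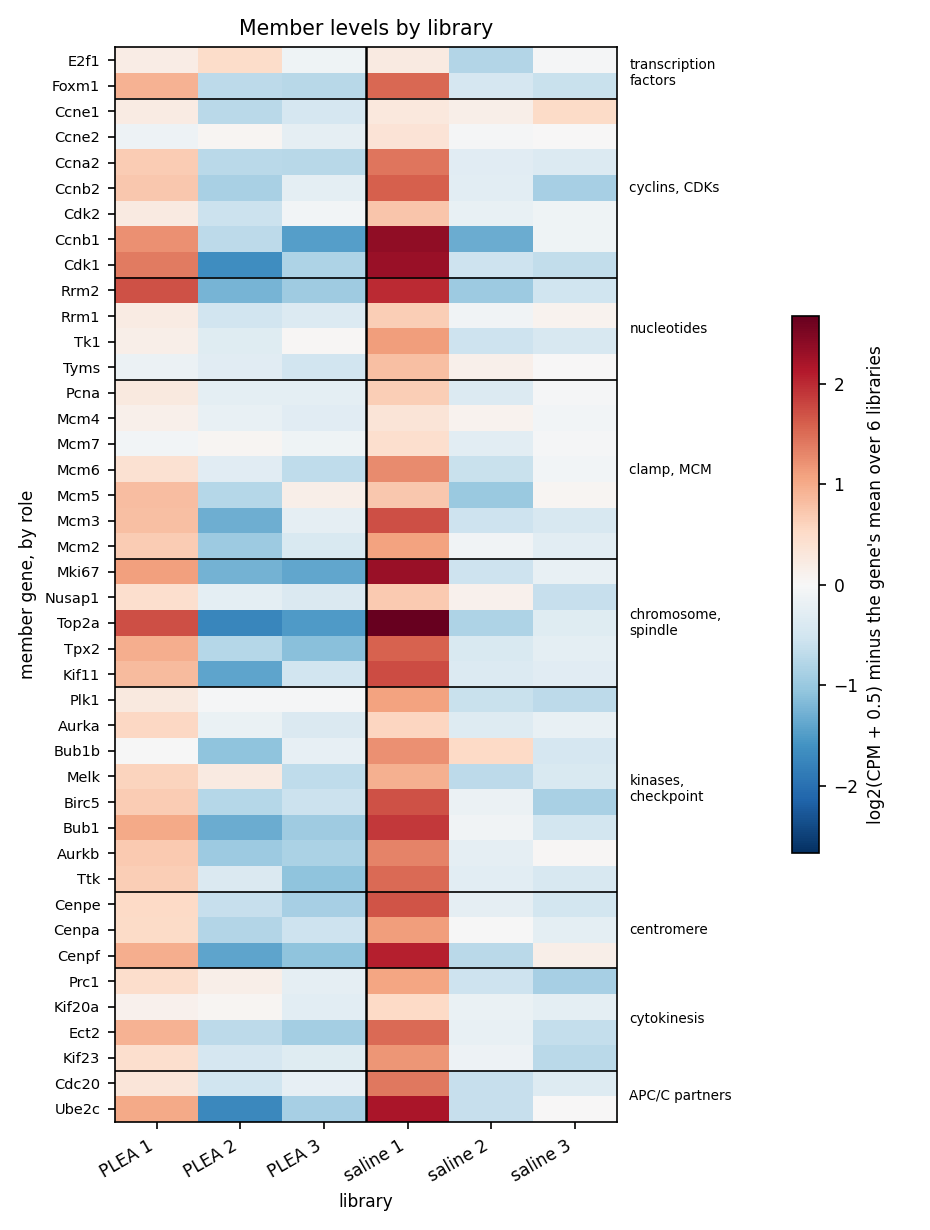
Level of the 42 members (rows, grouped by role) in the 3 PLEA and 3 saline libraries (columns), as log2(CPM + 0.5) minus the gene's mean over the 6 libraries. PLEA replicate 1 and saline replicate 1 form the red columns, and saline replicate 1 is the highest library for 39 of 42 members.

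Between the groups, no member passed the test (edgeR quasi-likelihood test, Benjamini-Hochberg adjusted p over all 17584 genes, threshold 0.05). The smallest adjusted p of a member was 0.818, and no gene of the whole table passed either, so the background is 0.0% higher and 0.0% lower. With an unadjusted p below 0.05 there were 0 members higher in PLEA cortex and 2 lower, Ccne1 and Tyms, against 2.28% and 3.58% of all genes. DESeq2 called 0 members at the same adjusted threshold. Over all genes it called 4 higher (0.0258%) and 37 lower (0.238%) of the 15524 to which it gave an adjusted p. The members Aurkb and Top2a received no adjusted p from DESeq2, so they could not be called there. The fitted log2 fold change, PLEA over saline, was negative for 36 of 40 tested members, against 51.0% of all genes, and positive for E2f1, Mcm5, Prc1 and Melk. The members' median was -0.59, with a range of -1.44 to 0.36, beside a median of -0.01 over all genes. The groups did not overlap for 1 member, Tyms, which was lower in PLEA cortex, against 5.54% of all genes lower and 5.16% higher. Leaving out saline replicate 1 turned the members' median to 0.35, as described below.

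**Figure D2:**
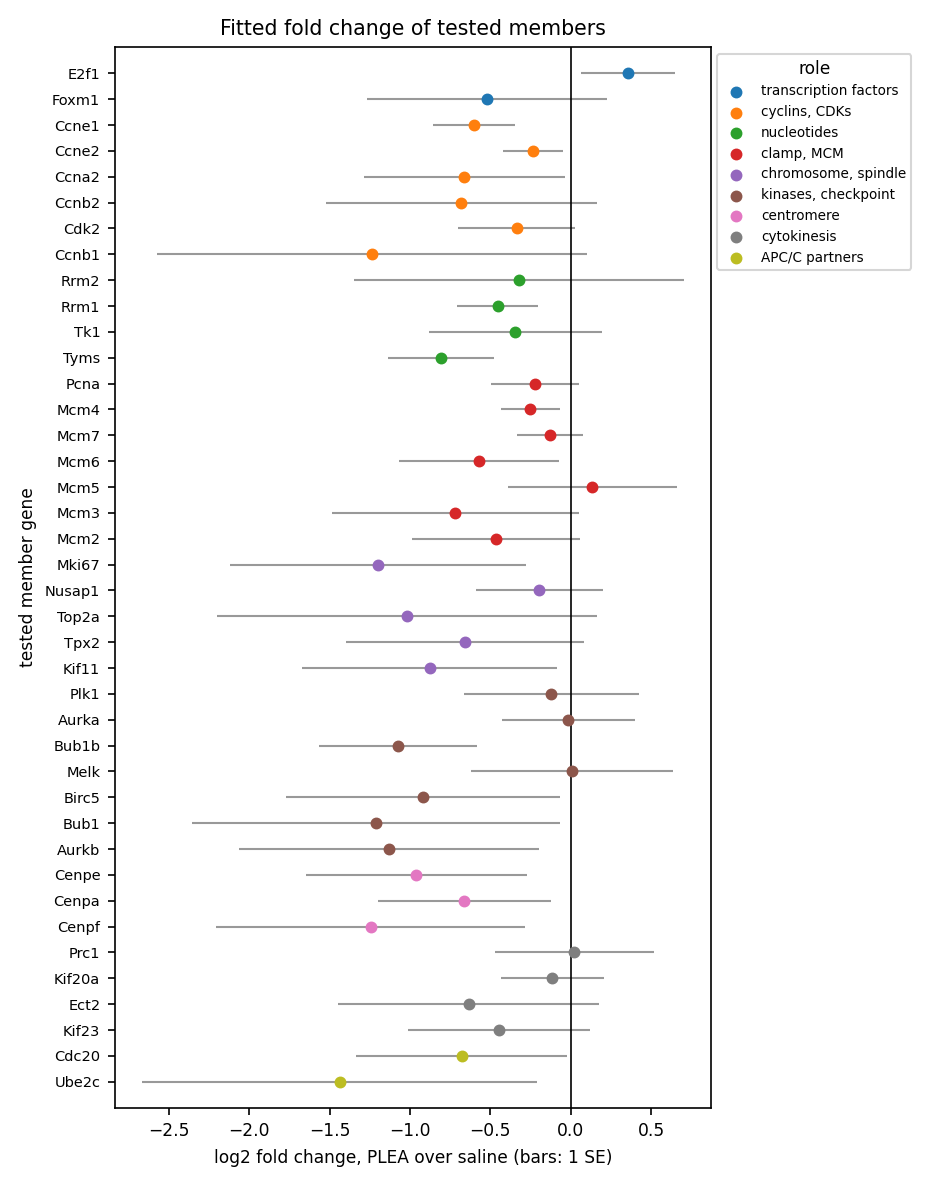
Fitted log2 fold change (PLEA over saline, x axis) of the 40 tested members, grouped by role and coloured by it, with bars of 1 SE. Most points lie left of 0, 36 of 40, and their bars are wide: Ube2c is lowest at -1.44 and E2f1 highest at 0.36.

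The transcription factors that open and close the programme differed from each other. E2f1, which drives the genes of DNA replication, was measured at 12.9, 16.1 and 10.3 CPM in the PLEA libraries, against 13.4, 6.30 and 11.0 CPM in the saline libraries. Its lowest library was saline replicate 2, and its log2 fold change was 0.36 (SE 0.29) with an edgeR adjusted p of 0.856. Foxm1, which drives mitotic genes, was at 6.65, 1.81 and 1.73 CPM in the PLEA libraries, against 10.4, 2.25 and 1.97 CPM in the saline libraries. The groups overlapped for both genes, and Foxm1 had 1 high library in each group, with a log2 fold change of -0.52 (SE 0.75). Foxm1 shares 144 bases of exon with Tex52 on the same strand.

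Among the cyclins and their kinases, the gene of cyclin E1 had the smallest p. Ccne1, the cyclin that starts S phase with Cdk2, was at 15.3, 7.76 and 9.50 CPM in the PLEA libraries, against 16.0, 14.6 and 18.8 CPM in the saline libraries. It averaged 10.9 ± 3.95 CPM in PLEA cortex and 16.5 ± 2.15 CPM in saline cortex (SD, n = 3 each). Only PLEA replicate 1 reached the saline range, so the groups overlapped at that library. The log2 fold change was -0.60 (SE 0.26), with an unadjusted edgeR p of 0.0459 and an adjusted p of 0.818. Its highest library was saline replicate 3, and without saline replicate 1 its log2 fold change was -0.61. Without PLEA replicate 1 it was -0.94, and without PLEA replicate 2 it was -0.41. The related Ccne2 stayed within a narrow span, at 9.77, 11.3 and 9.06 CPM in the PLEA libraries, against 14.1, 10.5 and 10.8 CPM in the saline libraries, with a log2 fold change of -0.24 (SE 0.19). Ccne2 shares 609 bases of exon with Ints8 on the opposite strand, and reads of such a partner could enter the count, since no source used here states how strand was treated.

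The cyclins of the later phases, chosen here after their values were seen, were dominated by the libraries numbered 1. Ccna2, the cyclin of S phase and early mitosis, was at 7.40, 2.49 and 2.46 CPM in the PLEA libraries, against 12.7, 3.47 and 3.32 CPM in the saline libraries. Ccnb1, the cyclin that carries cells into mitosis, had 54, 8 and 1 counts in the PLEA libraries, against 128, 2 and 15 counts in the saline libraries. Cdk1, its kinase, had 63, 0 and 7 counts in the PLEA libraries, against 124, 10 and 8 counts in the saline libraries and did not pass the filter. The 0 in PLEA replicate 2 allows up to 3 counts, or 0.170 CPM, in that library, by counting error alone. For Cdk1 the highest library was 13.6 times the median library, the widest spread of the 42 members. The log2 fold changes were -0.66 (SE 0.63) for Ccna2, -1.24 (SE 1.34) for Ccnb1, -0.68 (SE 0.84) for Ccnb2 and -0.34 (SE 0.37) for Cdk2, and the groups overlapped for each. Ccnb1 has a near-identical copy, Ccnb1-ps, alike at 99.2% over 1287 bases and itself at 0 to 12 counts, and Ccna2 shares 510 bases of exon with Exosc9 on the opposite strand.

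The nucleotide enzymes held the member whose groups did not overlap. Tyms, thymidylate synthase, makes the thymidine nucleotide for DNA and had 2.14, 1.87 and 1.57 CPM in the PLEA libraries, against 4.58, 2.72 and 2.46 CPM in the saline libraries. It averaged 1.86 ± 0.287 CPM in PLEA cortex and 3.25 ± 1.15 CPM in saline cortex (SD, n = 3 each). All 3 PLEA libraries lay below all 3 saline libraries, and the log2 fold change was -0.81 (SE 0.33), with an unadjusted edgeR p of 0.0397 and an adjusted p of 0.818. The gene rested on few reads, with 37, 33 and 28 counts in the PLEA libraries, against 78, 47 and 40 counts in the saline libraries. Without saline replicate 1 its log2 fold change was -0.47 with an edgeR p of 0.183.

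Ribonucleotide reductase, which makes deoxynucleotides, showed unlike spreads in its subunits. Rrm1, the large subunit, was at 30.1, 18.1 and 20.0 CPM in the PLEA libraries, against 41.1, 24.3 and 27.9 CPM in the saline libraries. Rrm2, the small subunit that is made in S phase, was at 15.7, 1.59 and 2.07 CPM in the PLEA libraries, against 19.2, 2.02 and 2.95 CPM in the saline libraries. Rrm2 was high in the libraries numbered 1 of both groups and between 1.59 and 2.95 CPM elsewhere, a highest library 7.66 times the median, whereas Rrm1 stood at a ratio of 1.58. Their log2 fold changes were -0.45 (SE 0.25) and -0.32 (SE 1.03). Tk1, the thymidine salvage kinase, was at 2.48, 1.64 and 2.24 CPM in the PLEA libraries, against 5.28, 1.33 and 1.48 CPM in the saline libraries, with a log2 fold change of -0.35 (SE 0.54).

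The replication clamp and the MCM helicase, which encircle and open DNA, varied least of the 9 role groups, with a highest library that was a median of 1.76 times the median library. Pcna, the sliding clamp, was the most abundant member per length, at a mean of 11.4 CPM per kilobase over the 6 libraries. It was measured at 31.8, 21.9 and 22.0 CPM in the PLEA libraries, against 42.2, 20.3 and 25.9 CPM in the saline libraries. Its libraries numbered 1 were high in both groups, and its log2 fold change was -0.22 (SE 0.27) with an edgeR adjusted p of 0.896. Pcna has a near-identical copy, Pcna-ps2, alike at 99.2% over 781 bases and itself at 3 to 5 counts.

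The 6 subunits of the MCM ring did not vary alike. Mcm4 was even, at 15.8, 12.5 and 11.5 CPM in the PLEA libraries, against 18.4, 15.3 and 13.7 CPM in the saline libraries, and its highest library was 1.27 times its median. Mcm7 was similarly even, at 13.9, 15.2 and 13.6 CPM in the PLEA libraries, against 20.3, 12.1 and 14.3 CPM in the saline libraries. Mcm3 was uneven, at 7.51, 1.36 and 3.35 CPM in the PLEA libraries, against 14.6, 2.60 and 2.89 CPM in the saline libraries, a highest library 4.68 times the median, although all 6 proteins join in 1 ring. Mcm6, shown above for its E2F motifs, was at 12.2, 7.25 and 5.53 CPM in the PLEA libraries, against 22.5, 5.84 and 8.68 CPM in the saline libraries, and Mcm2 at 9.65, 2.72 and 4.30 CPM in the PLEA libraries, against 12.8, 5.49 and 4.74 CPM in the saline libraries. Mcm5 was the 1 member with PLEA replicate 1 as its highest library, at 11.3, 3.40 and 6.88 CPM in the PLEA libraries, against 10.5, 2.83 and 6.34 CPM in the saline libraries. Log2 fold changes of the 6 ran from -0.72 (SE 0.77) for Mcm3 through -0.57 (SE 0.50) for Mcm6, -0.47 (SE 0.52) for Mcm2, -0.25 (SE 0.19) for Mcm4 and -0.13 (SE 0.21) for Mcm7 to 0.13 (SE 0.53) for Mcm5. Mcm7 shares exon with Ap4m1 (321 bases) and Cops6 (64 bases) on the opposite strand, and Cops6 had 1109 to 1216 counts.

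The mitotic members varied more between libraries than the S-phase members. Saline replicate 1 was the highest library in 22 of 22 mitotic members, and PLEA replicate 1 was the highest PLEA library in the same 22, against 15.0% of all tested genes that had both. Their highest library was a median of 4.11 times the median library (1.59 to 10.4), while in the 11 S-phase members it was 1.99 times (1.27 to 7.66). Their median log2 fold change was -0.68 over 21 tested genes, 19 of them negative, and that of the S-phase members was -0.35, 10 of 11 negative.

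Mitotic chromosome and spindle proteins showed the pattern at the largest counts. Mki67, the proliferation marker that coats mitotic chromosomes, had 20.3, 3.57 and 3.24 CPM in the PLEA libraries, against 48.0, 6.13 and 8.0 CPM in the saline libraries, or 351, 63 and 58 counts in the PLEA libraries, against 819, 106 and 130 counts in the saline libraries. The log2 fold change was -1.20 (SE 0.92), with an edgeR adjusted p of 0.850. The groups overlapped because PLEA replicate 1 lay above saline replicates 2 and 3, and PLEA replicates 2 and 3 were the lowest libraries. Top2a, the topoisomerase that untangles chromosomes, named after its values were seen, had 19.5, 1.30 and 1.62 CPM in the PLEA libraries, against 38.1, 2.95 and 4.37 CPM in the saline libraries. The highest library of Top2a was 10.4 times its median library, and its log2 fold change was -1.02 (SE 1.18). Nusap1, a spindle-binding protein, spanned less, at 7.11, 4.14 and 3.75 CPM in the PLEA libraries, against 8.51, 5.49 and 3.14 CPM in the saline libraries and -0.19 (SE 0.40) on the log2 scale of fold change. Kif11, the spindle motor whose promoter is shown above, was at 6.24, 0.907 and 2.12 CPM in the PLEA libraries, against 12.1, 2.43 and 2.52 CPM in the saline libraries. Its log2 fold change was -0.88 (SE 0.80), and that of Tpx2, an activator of Aurora A, was -0.66 (SE 0.74). Nusap1 shares 172 bases of exon with Oip5 on the opposite strand.

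Among the mitotic kinases and checkpoint genes, Bub1b had the smallest p. Bub1b, a kinase-like brake on anaphase, was at 3.58, 1.47 and 3.07 CPM in the PLEA libraries, against 9.09, 5.49 and 2.52 CPM in the saline libraries. PLEA replicates 1 and 3 lay above saline replicate 3, and the log2 fold change was -1.07 (SE 0.49) with an unadjusted edgeR p of 0.0598 and an adjusted p of 0.818. Without saline replicate 1 it was -0.56 with an edgeR p of 0.265, and without saline replicate 3 it was -1.44. Plk1, a kinase of mitotic entry, was at 3.24, 2.55 and 2.52 CPM in the PLEA libraries, against 6.04, 1.56 and 1.42 CPM in the saline libraries, and PLEA replicates 2 and 3 were above saline replicates 2 and 3. Aurka, Aurora kinase A, was at 4.10, 2.27 and 1.90 CPM in the PLEA libraries, against 4.17, 1.97 and 2.22 CPM in the saline libraries. Those genes had log2 fold changes near 0, -0.12 (SE 0.54) for Plk1 and -0.01 (SE 0.41) for Aurka. The low-count members Aurkb, Birc5, Bub1 and Melk lay between 0.0567 and 5.69 CPM over the libraries, highest in saline replicate 1 for each, and the fitted log2 differences were -1.13 (SE 0.94) for Aurkb, -0.92 (SE 0.85) for Birc5, -1.21 (SE 1.15) for Bub1 and 0.01 (SE 0.63) for Melk. Ttk, a checkpoint kinase, had 23, 7 and 1 counts in the PLEA libraries, against 48, 8 and 6 counts in the saline libraries and did not pass the filter.

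The centromere genes repeated the order of libraries. Cenpe, a kinetochore motor, was at 5.37, 2.15 and 1.68 CPM in the PLEA libraries, against 12.6, 2.95 and 2.40 CPM in the saline libraries. Cenpa, the histone of centromeres, was at 4.05, 1.36 and 1.68 CPM in the PLEA libraries, against 6.39, 2.66 and 2.15 CPM in the saline libraries. Both were highest in saline replicate 1 and next in PLEA replicate 1, and the log2 fold changes were -0.96 (SE 0.69) for Cenpe, -0.66 (SE 0.54) for Cenpa and -1.25 (SE 0.96) for Cenpf.

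The 4 cytokinesis genes, 3 of them negative, had a median log2 fold change of -0.28. Prc1, which bundles the central spindle, was at 12.0, 9.63 and 7.21 CPM in the PLEA libraries, against 18.2, 5.72 and 4.43 CPM in the saline libraries. All 3 PLEA libraries of Prc1 were above saline replicates 2 and 3, while saline replicate 1 was highest, and the log2 fold change was 0.02 (SE 0.50). Kif20a, a motor of the central spindle, was at 3.70, 3.51 and 2.68 CPM in the PLEA libraries, against 5.10, 2.89 and 2.71 CPM in the saline libraries, and Kif23, another motor of the midbody, at 3.81, 1.81 and 2.01 CPM in the PLEA libraries, against 6.63, 2.37 and 1.42 CPM in the saline libraries. Their log2 fold changes were -0.11 (SE 0.32) and -0.45 (SE 0.57), and that of Ect2, which starts the furrow, was -0.63 (SE 0.81). Prc1 shares 911 bases of exon with Rccd1 (196 to 286 counts) and Kif20a 1271 bases with Cdc23 (689 to 879 counts), each on the opposite strand, so these levels may hold reads of the partner gene.

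The partners of the anaphase-promoting complex, which ends mitosis by marking proteins for destruction, were low and uneven. Ube2c, its conjugating enzyme, had 49, 0 and 7 counts in the PLEA libraries, against 119, 10 and 19 counts in the saline libraries. Cdc20, its activator, was at 2.37, 1.08 and 1.45 CPM in the PLEA libraries, against 5.57, 0.983 and 1.29 CPM in the saline libraries. In both genes saline replicate 1 was highest and PLEA replicate 1 next, and the log2 fold changes were -1.44 (SE 1.23) and -0.68 (SE 0.66). That of Ube2c is a fitted value beside a library with 0 counts and sets no bound.

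The direction of the group difference rested on which libraries were in the fit. Without saline replicate 1, the members' median log2 fold change was 0.35 and 32 of 40 tested members were positive. The sign was opposite to that with all 6 libraries for 28 of the 40, among them Top2a at 1.05, Ccnb1 at 1.24 and Mki67 at 0.37. In that fit 2 members had an unadjusted edgeR p under 0.05 and were higher in PLEA cortex, Plk1 and Prc1, against 2.62% of all genes. Without PLEA replicate 1 the median was -1.11, 39 of 40 members were negative, and 10 had an unadjusted edgeR p under 0.05 and were lower, against 4.93% of all genes. Those 10 were Aurkb, Bub1, Ccne1, Cenpa, Cenpf, Mki67, Rrm1, Top2a, Tpx2 and Ube2c. Leaving out any other single library kept a negative median, between -0.93 and -0.32.

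With both libraries numbered 1 left out, a setting chosen after the data were seen, 36 members passed the filter and their median was -0.23, 24 of them negative. Ccne1, Cenpf, Mki67, Rrm1 and Top2a were then lower in PLEA cortex at an unadjusted edgeR p under 0.05, against 4.34% of all genes, and Prc1 was higher, against 4.4%. Mki67 was at -1.04 and Prc1 at 0.73 on the log2 scale of fold change. The smallest adjusted p of a member in this fit was 0.515.

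**Figure D3:**
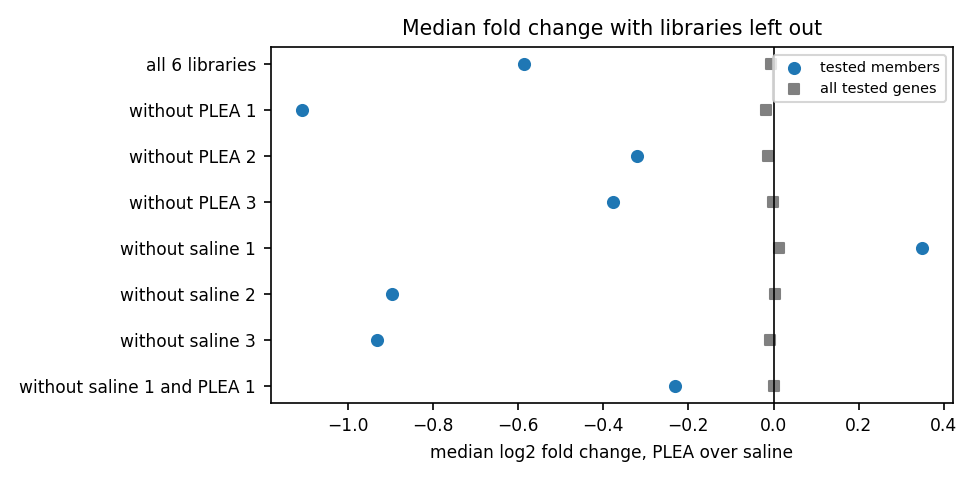
Median log2 fold change (PLEA over saline, x axis) of the tested members (circles) and of all tested genes (squares), with all 6 libraries and with the named libraries left out (rows). The members' median is -0.59 with all libraries, 0.35 without saline replicate 1 and -1.11 without PLEA replicate 1, while the median of all genes stays near 0.

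Another 105 cell cycle genes in 8 lists were read beside the members. Of these, 101 were tested, 83 were negative, the median log2 fold change was -0.25, and none passed the adjusted test. Their highest library was a median of 1.55 times the median library. At an unadjusted edgeR p under 0.05, 1 was higher (Cdkn1a) and 1 was lower (Mad2l1) in PLEA cortex, beside the 2.28% and 3.58% of all genes given above. The groups did not overlap for 1 tested gene on the higher side and 6 on the lower side, Mad2l1, Rfc3, Pole2, Pold3, Lin9 and Cdc25a, beside shares of 5.16% higher and 5.54% lower over all genes.

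A brake on the cycle had the smallest p of the 105 genes. With all 6 libraries in the fit, its fold change was opposite in sign to most members. Without saline replicate 1 it was 1.71 on the log2 scale, and 32 of 40 tested members were positive as well. Cdkn1a, the CDK inhibitor through which p53 halts the cycle, was at 32.5, 70.1 and 35.0 CPM in the PLEA libraries, against 27.7, 9.71 and 18.6 CPM in the saline libraries. It averaged 45.9 ± 21.0 CPM in PLEA cortex and 18.7 ± 9.02 CPM in saline cortex (SD, n = 3 each). Every PLEA library was above every saline library, and PLEA replicate 2 was the highest and saline replicate 2 the lowest. The log2 fold change was 1.30 (SE 0.41), with an unadjusted edgeR p of 0.0123 and an adjusted p of 0.818, and it ran between 0.85 and 1.90 as libraries were left out. Cdkn1b, a related inhibitor of resting cells, chosen after its values were seen, was at 49.1, 51.5 and 42.9 CPM in the PLEA libraries, against 50.3, 58.7 and 46.8 CPM in the saline libraries, and Cdkn1c had a log2 fold change of -0.69 (SE 0.33). Of the 8 genes of this list 6 were tested, 3 negative and 3 positive, with Trp53, the gene of p53 itself, at 0.28 (SE 0.20). Cdkn1a shares 273 bases of exon with the gene AC167363.2 on the opposite strand.

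The groups overlapped for all 5 genes of the D-type cyclins, which respond to growth signals, and their kinases. Ccnd1, named after its values were seen, was at 79.2, 22.6 and 38.6 CPM in the PLEA libraries, against 74.0, 26.8 and 33.3 CPM in the saline libraries. The libraries numbered 1 were high in both groups, as for the mitotic members, but PLEA replicate 1 was not below saline replicate 1. Ccnd2, which is also made outside dividing cells in brain, was at 61.0, 54.4 and 56.8 CPM in the PLEA libraries, against 71.9, 32.3 and 54.0 CPM in the saline libraries. Log2 fold changes were 0.07 (SE 0.49) for Ccnd1, 0.12 (SE 0.25) for Ccnd2 and -0.08 (SE 0.20) for Ccnd3, and the list's median was -0.02 with 3 of 5 negative. Ccnd1 shares 1100 bases of exon with LTO1 (185 to 237 counts) on the opposite strand.

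In the retinoblastoma and E2F list 10 of 13 genes were negative, with a median of -0.24, and the smallest p-values were those of Lin9, a DREAM subunit, at -0.44 (SE 0.22), and Rb1 at -0.26 (SE 0.15). Origin licensing and firing had 14 of 17 negative and a median of -0.24. Mcm10, which loads at firing origins, was at -0.79 (SE 0.56) and Dbf4, the activator of the Cdc7 kinase, at -0.63 (SE 0.48), while Orc2 to Orc6 of the origin recognition complex lay between -0.04 and 0.06. The polymerases and fork factors had 19 of 22 negative and a median of -0.21, with the clamp loader subunit Rfc3 at -0.56 (SE 0.24) and the polymerase epsilon subunit Pole2 at -0.91 (SE 0.43).

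Entry to mitosis had 9 of 9 tested genes negative and a median of -0.17, with Cdc25a, a phosphatase that activates CDKs, at -0.36 (SE 0.21) and Cks1b, a CDK subunit, at -0.66 (SE 0.45). The kinetochore and spindle list had 14 of 18 tested genes negative and a median of -0.54. Mad2l1, a brake on anaphase, was at 8.61, 8.10 and 7.21 CPM in the PLEA libraries, against 12.1, 10.8 and 9.79 CPM in the saline libraries. All 3 PLEA libraries of Mad2l1 were below all 3 saline libraries, with a log2 fold change of -0.45 (SE 0.18), an unadjusted edgeR p of 0.0355 and an adjusted p of 0.818. Kif2c, which removes tubulin at kinetochores, had the most negative log2 fold change of the 8 lists, -1.62 (SE 0.97). The condensin, separase and cytokinesis list had 11 of 11 negative and a median of -0.40, with the condensin genes Ncapd2 at -0.39 (SE 0.20) and Smc2 at -0.53 (SE 0.33).

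Some genes named for mitosis were abundant and did not follow the members. Zwint, a kinetochore protein that is also found at synapses, was at 866, 930.3 and 813 CPM in the PLEA libraries, against 643, 1026 and 934 CPM in the saline libraries, the highest level per length of the 8 lists at 196 CPM per kilobase. Cit, citron kinase, which neurons also make, was at 167, 163 and 190.5 CPM in the PLEA libraries, against 149, 239 and 166 CPM in the saline libraries. Anln, an actin binder of the cleavage furrow that mature oligodendrocytes also make, was at 32.8, 47.3 and 40.8 CPM in the PLEA libraries, against 31.5, 53.3 and 37.5 CPM in the saline libraries. Saline replicate 1 was the lowest library for all 3 genes, which were chosen after their values were seen.

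**Figure D4:**
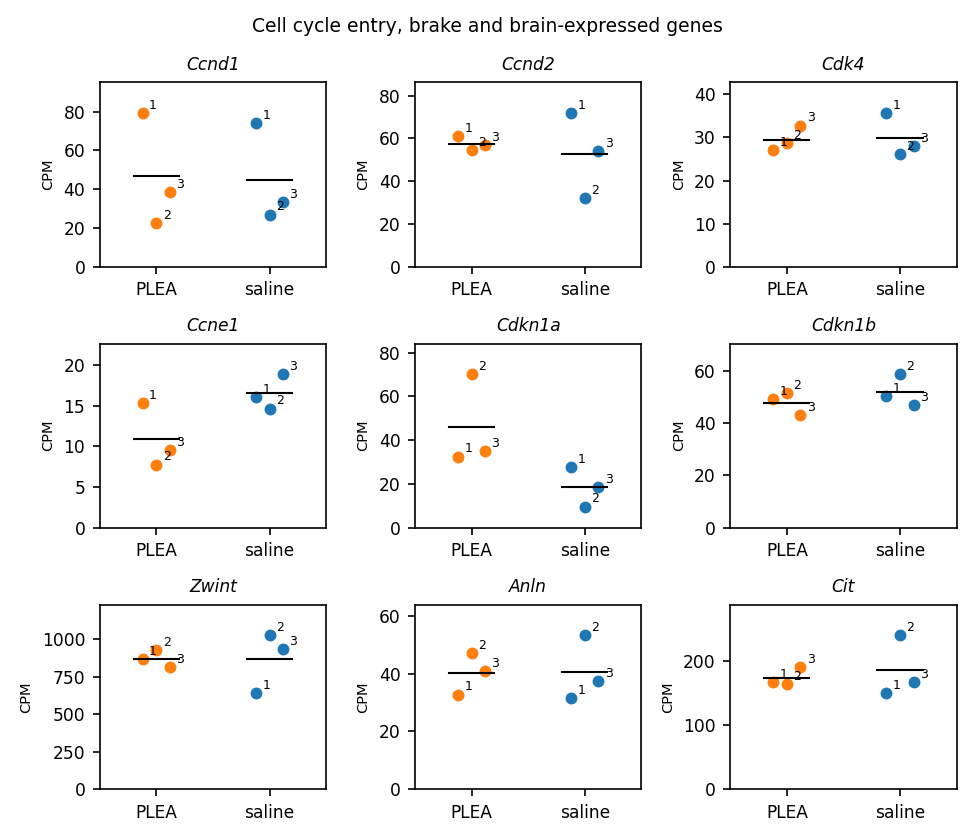
CPM (y axis) of Ccnd1, Ccnd2, Cdk4, Ccne1, Cdkn1a, Cdkn1b, Zwint, Anln and Cit in the PLEA (orange) and saline (blue) libraries, 1 panel a gene, with the replicate number beside each point and the group mean as a line. The groups do not overlap for Cdkn1a, higher in PLEA, and they overlap for the other 8 genes.

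Markers of microglia, macrophages, astrocytes, endothelium, mural cells and meningeal fibroblasts had their highest sums in saline replicate 1. Lymphocyte markers did too, at only 0.704 CPM. The summed level of 7 microglial markers was 393, 137 and 253 CPM in the PLEA libraries, against 742, 259.7 and 328 CPM in the saline libraries, and 7 of 7 were highest in saline replicate 1. Among them P2ry12, a receptor of resting microglia, was at 32.4, 7.99 and 11.6 CPM in the PLEA libraries, against 82.9, 32.3 and 38.3 CPM in the saline libraries, and Tmem119 at 16.6, 6.97 and 11.0 CPM in the PLEA libraries, against 32.8, 10.6 and 15.4 CPM in the saline libraries. The 7 monocyte and macrophage markers summed to 26.6, 8.27 and 13.8 CPM in the PLEA libraries, against 111, 18.2 and 34.7 CPM in the saline libraries, and 5 of 7 were highest in saline replicate 1. Only 2 of the 7 passed the filter on low counts. Lyz2, the macrophage lysozyme, named after its values were seen, was at 16.8, 3.91 and 7.66 CPM in the PLEA libraries, against 81.3, 9.42 and 16.1 CPM in the saline libraries. Ccr2, the receptor of blood monocytes, was at 0.405, 0.170 and 0.168 CPM in the PLEA libraries, against 6.22, 0.462 and 0.923 CPM in the saline libraries. Saline replicate 1 was the highest library for both sums.

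The 5 astrocyte markers summed to 1406, 726 and 1256 CPM in the PLEA libraries, against 3209, 1486 and 1269 CPM in the saline libraries, and 5 of 5 were highest in saline replicate 1. Gfap, a filament gene of reactive astrocytes, was at 488, 109 and 456 CPM in the PLEA libraries, against 1683, 387 and 358 CPM in the saline libraries, and Vim, named after its values were seen, at 219.6, 37.4 and 104 CPM in the PLEA libraries, against 311, 71.0 and 71.3 CPM in the saline libraries. Vim was high in the libraries numbered 1 of both groups, as the members were, whereas PLEA replicate 3 was near PLEA replicate 1 for Gfap. The 5 endothelial markers summed to 159.8, 109 and 147 CPM in the PLEA libraries, against 249.9, 158 and 177 CPM in the saline libraries. The 5 mural markers summed to 195, 163 and 159.8 CPM in the PLEA libraries, against 318, 199 and 209.9 CPM in the saline libraries. The 6 meningeal markers summed to 59.6, 43.2 and 46.6 CPM in the PLEA libraries, against 134, 98.3 and 131 CPM in the saline libraries. Every PLEA sum was below every saline sum for the mural and the meningeal markers, and also for the neutrophil markers given below. By gene, the groups did not overlap for 6 of 6 meningeal, 3 of 5 endothelial and 1 of 5 mural markers, lower in PLEA cortex. The same held for 2 of 5 astrocyte and 1 of 7 microglial markers. Over all tested genes that share was 5.54%. It also held for 3 of 7 monocyte and macrophage markers and 2 of 5 neutrophil markers, none of which passed the filter.

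Other cell types did not follow the order of the members. The 5 markers of oligodendrocyte precursors summed to 213, 206 and 229 CPM in the PLEA libraries, against 237, 266 and 210.0 CPM in the saline libraries, and Pdgfra, the receptor that defines them, was at 59.2, 67.2 and 62.0 CPM in the PLEA libraries, against 66.6, 61.2 and 65.6 CPM in the saline libraries. The 5 neuron markers summed to 6979, 5601 and 5383 CPM in the PLEA libraries, against 5559, 6078 and 6582 CPM in the saline libraries, and the 5 markers of neuroblasts and the ventricular zone to 109.6, 133 and 135 CPM in the PLEA libraries, against 104, 96.4 and 124 CPM in the saline libraries. None of these 3 lists had its highest sum in saline replicate 1. The 5 neutrophil markers summed to 0.289, 0.0567 and 0.168 CPM in the PLEA libraries, against 0.587, 0.405 and 15.1 CPM in the saline libraries, with Ly6g at 0 in 5 of 6 libraries, so saline replicate 3 alone held more than a trace. Lymphocyte markers summed to at most 0.704 CPM in any library, with the B cell gene Ms4a1 at 0 in all 6, and the 4 erythroid markers to 0.751 to 2.89 CPM. The part of any of these markers in the members' levels was not tested.

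**Figure D5:**
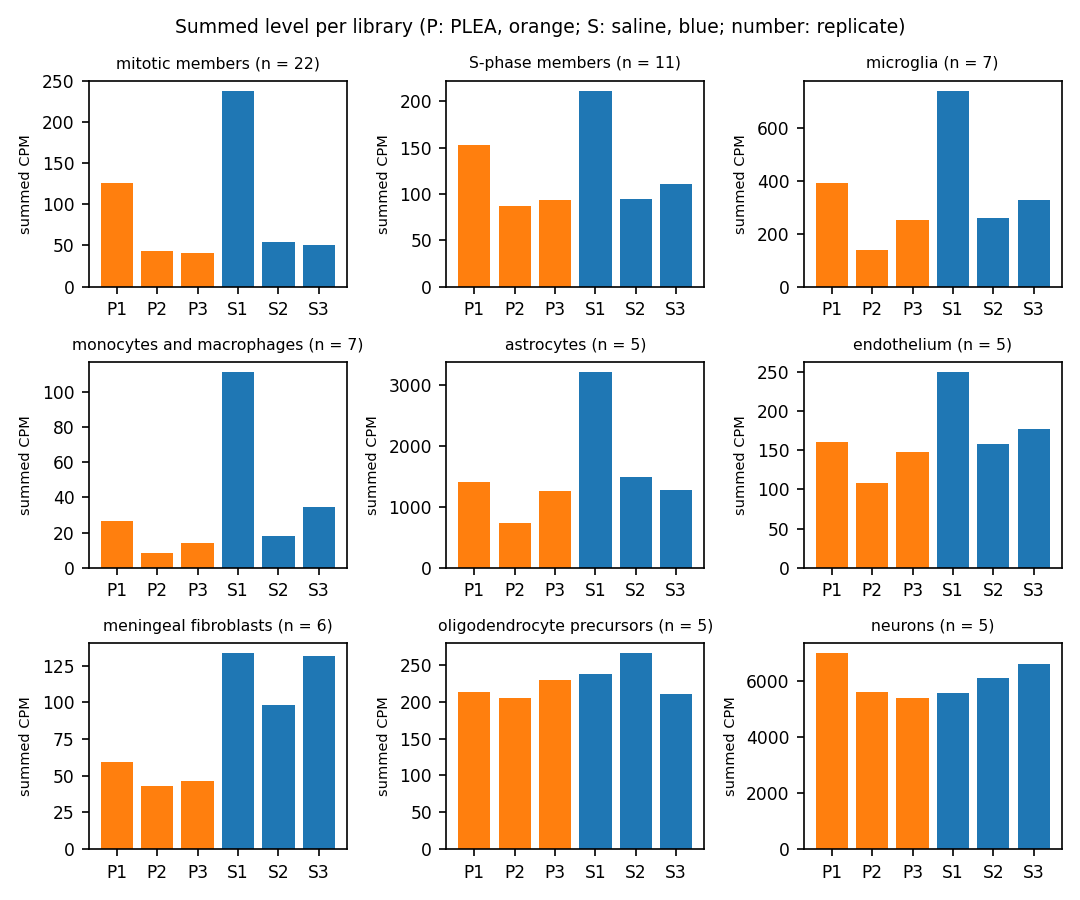
Summed CPM (y axis, from 0) of the mitotic members, the S-phase members and 7 marker lists in PLEA replicates 1 to 3 (P1 to P3, orange) and saline replicates 1 to 3 (S1 to S3, blue). P1 and S1 are the highest libraries of their groups for the members and for 5 marker lists. These are microglia, monocytes and macrophages, astrocytes, endothelium and meningeal fibroblasts. The markers of oligodendrocyte precursors and neurons lack that order.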

How the data were processed

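RNA from infarcted cortex was sequenced in 6 libraries. Per the labels' protocols, RNA came from RNeasy columns and 1.3 µg was used for each SMARTer mRNA library. The authors deposited raw whole-number counts per gene, with gene length in bases, and no normalization had been applied. As builds, GRCm38 and mm10 stand in the submitters' processing notes. No source used here gives the aligner, the counting tool or how strand was treated. No deposited coordinates are printed, and promoter coordinates belong to the GRCm38.p6 table. Exon overlaps and near-identical copies came from GENCODE M21.

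The test was edgeR 4.0.16 (R 4.3.3), with filterByExpr (minimum count 10, total 15), TMM factors, the quasi-likelihood F test with group as the only term, and Benjamini-Hochberg adjustment over 17584 genes at 0.05. The SE of a log2 fold change is its size over the root of its F value. The code was tested on simulated data. Alternatives were DESeq2 1.42.0, limma 3.58.1 (voom), other size factors and filters, a replicate block and left-out libraries.

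The members and lists were chosen with earlier results of these data known. Named genes were, in each role group, the 2 most abundant per length and the smallest p, and members at an unadjusted p under 0.05. In each other cell cycle list they were the 2 tested genes with the smallest p. The remaining members and other genes are named outside this rule, with their values known. Each library's depth limits genes of few counts, and intervals and floors cover counting error only.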

Additional observations from a re-analysis of the deposited data

How the results depend on the processing

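Of 551 values under the alternatives, for the 37 genes that the naming rule chose, 499 kept their direction and their side of the threshold and 52 reversed. Over all 40 tested members, 86 of 593 values reversed, and 33 of 40 members turned in at least 1 fit with libraries left out. The 7 that did not were Bub1b, Ccne1, Ccne2, E2f1, Mcm4, Rrm1 and Tyms. No member passed the adjusted threshold in the alternatives run (edgeR variants, voom and DESeq2). Counts of genes called over the whole table were 0 higher and 0 lower in edgeR with the filter, 4 and 37 with DESeq2, and 7 and 31 without a filter, and 0 to 1 lower as libraries were left out. Members lower at an unadjusted p under 0.05 numbered 2, or 1 with voom, 3 with DESeq2, 5 without a filter and 0 to 10 with libraries left out, and members higher 0 to 2. With a replicate block there were 14 such members, at a background of 5.07% of all genes, and the smallest adjusted p of a member was 0.248. The numbers were not taken as pairs, since same-numbered libraries deviated together for replicates 1 and 2 (correlation across genes 0.373 and 0.173) and not for replicate 3 (-0.0176), and not every library correlated best with its own number.

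The members' median log2 fold change ran between -1.11 and 0.61 with libraries left out, and was -0.44 with the block and -0.43 with voom. The highest value was without saline replicate 1 and PLEA replicate 2 together. In such fits, with fewer samples, the members among the 37 genes that turned ran as follows on the log2 scale: Aurka -0.43 to 0.52, Cdc20 -1.08 to 0.75, Cenpa -1.32 to 0.25, Cenpe -1.66 to 0.39, Foxm1 -1.48 to 0.98, Kif20a -0.29 to 0.24, Kif23 -0.88 to 0.62, Mki67 -2.63 to 0.73, Nusap1 -0.55 to 0.33, Pcna -0.44 to 0.22, Plk1 -0.47 to 0.95, Prc1 -0.33 to 0.93, Rrm2 -2.17 to 1.83 and Ube2c -3.87 to 0.88. Of the other members, Top2a ran between -3.40 and 1.53, Ccnb1 between -3.48 and 1.61, Ccna2 between -1.42 and 0.53, Kif11 between -1.93 and 0.75, Mcm3 between -1.53 and 0.98, Mcm5 between -0.37 and 0.99, Mcm6 between -0.97 and 0.29 and Tk1 between -0.68 and 0.75, and Aurkb, Birc5, Bub1, Ccnb2, Cdk2, Cenpf, Ect2, Mcm2, Mcm7, Melk and Tpx2 also turned. Melk also turned with DESeq2, RLE factors and no filter. Outside the members the ranges were Ccnd2 -0.14 to 0.45, Ccnd3 -0.27 to 0.14, Cks1b -0.97 to 0.010, Dbf4 -0.92 to 0.29, Kif2c -2.86 to 0.46, Mcm10 -1.12 to 0.29 and Smc2 -0.91 to 0.037. Plk1 also turned to 0.20 with voom and 0.15 with the block, and Prc1 to -0.0018 without a filter, and the cause was not tested. Genes of few counts, such as Cdk1, Ccnb1, Ttk and Ube2c, are limited by depth.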
